A study of Homo sapiens with 6 samples.

Results

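The genes described are 44 interferon-stimulated genes, and all 44 were found in a table of 58302 gene entries. They were taken by symbol, with no threshold on measured values, but with earlier results of these data known. Their shares set against all genes are therefore descriptions only. Interferon-stimulated genes are those that a cell switches on after an interferon has bound its receptor. The receptors pass the signal through JAK kinases to transcription factors, STAT2 and IRF9 among them, which bind a DNA element called the interferon-stimulated response element. Another element of such genes is the gamma-activated site. The products bind or degrade viral RNA, block viral assembly, attach the ubiquitin-like protein ISG15 to other proteins, or feed back on the pathway, and keratinocytes keep a low level of many of them without infection. In siKMT2C cells none of the 44 passed the test over all genes, 36 of the 43 that could be tested had a negative log2 fold change, and the size of the difference depended on which libraries were compared.

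The cells were Ker-CT, a line of human keratinocytes immortalised with telomerase and CDK4, so all libraries stem from 1 line. There were 3 libraries from cells given siRNA against KMT2C (siKMT2C) and 3 from cells given negative control siRNA (siNC). All 6 were treated for 24 h with the M5 cocktail of oncostatin M, TNF-α, IL-17A, IL-1α and IL-22, which were used at 10 ng/ml. M5 holds no interferon, and no library without M5 was analysed here. KMT2C is a methyltransferase for lysine 4 of histone H3. The sources used here give neither the siRNA sequences nor the time of transfection, and they do not say whether replicates came from separate cultures, so the p-values measure only the spread between these libraries. The series asks how depletion of KMT2C alters gene expression in psoriasis-like keratinocytes.

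The libraries held 14409277 to 17539519 counts. KMT2C stood at 32.0, 30.8 and 27.3 CPM (counts scaled to library size, with sizes adjusted by the trimmed mean of M-values) in siKMT2C replicates 1 to 3, against 87.9, 82.0 and 72.6 CPM in siNC replicates 1 to 3. These groups did not overlap, and KMT2C fell to 37.1% of the siNC level (edgeR adjusted p = 0.00786). An exact permutation test, two-sided, gave 0.1, which is the lowest p that 3 libraries against 3 can reach. The edgeR call of KMT2C did not hold without siKMT2C replicate 1, siKMT2C replicate 2 or siNC replicate 2, with adjusted p of 0.0634, 0.0507 and 0.0593. Across all genes, 226 of 15063 tested (1.5%) were called at an edgeR adjusted p under 0.05, and 16.9% had an unadjusted p under 0.05. Mitochondrial transcripts took 4.83% of counts in siNC replicate 3 and 5.02% in siKMT2C replicate 3, and 5.78% to 6.65% in the other libraries. The count-weighted GC content of transcripts was 50.2% and 49.5% in these same libraries and 48.2% to 48.8% in the others.

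The RefSeq promoter table (GRCh38.p14, 250 bases before to 50 bases after each start) held 36 of the 44 members. OAS2, OASL, IFIT2, USP18, IRF2, IRF7, MX2 and GBP2 had no entry. The core of the interferon-stimulated response element was searched as TTTC-NN-TTTC (2 copies of TTTC with any 2 bases between) on both strands, and occurred in 21 of the 36 promoters (58.3%), against 3.57% of 35116 promoters in the table. The core of the gamma-activated site, searched as TTC-NNN-GAA on both strands, occurred in 9 of the 36 (25.0%), against 7.66%. The motifs can overlap, 5 members held both and 11 held neither. The sites below are shown because they are the shared regulatory letters of genes whose values follow, with the core in capitals, read 5′ to 3′ on the gene's strand.
ISG15, chr1:1013380-1013409, plus strand: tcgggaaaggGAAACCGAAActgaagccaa
IFIT1, chr10:89392510-89392539, plus strand: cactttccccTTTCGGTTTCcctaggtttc
IFIT3, chr10:89327865-89327894, plus strand: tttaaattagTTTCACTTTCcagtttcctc
IFI6, chr1:27672288-27672317, minus strand: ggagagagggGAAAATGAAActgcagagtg
ISG20, chr15:88638937-88638966, plus strand: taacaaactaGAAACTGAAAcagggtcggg
PARP14, chr3:122680800-122680829, plus strand: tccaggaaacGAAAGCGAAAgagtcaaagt
IRF1, chr5:132490879-132490907, minus strand: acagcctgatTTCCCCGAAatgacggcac
The first 6 lines show the response element and the IRF1 line the gamma-activated site, 124 bases before the IRF1 start. The 21 tested members with the response element had a median log2 fold change of -0.35, with 18 negative, and the 15 without it in this window had a median of -0.35, with 12 negative. Members with a negative and with a positive value occur on both sides: ISG20 (-0.70) and IFI6 (0.04) hold the element, and RSAD2 (-1.48) and IFI16 (0.57) do not hold these letters in the window.

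GBP2 was the 1 member that did not pass the filter on low counts, with 23 counts over the 6 libraries. Of the 43 others, 0 were called in either direction by edgeR, where 0.81% of all genes were called lower and 0.69% higher. At an unadjusted edgeR p under 0.05, 16 members were lower and 1 was higher, against 9.01% and 7.91% of all genes. Their median log2 fold change was -0.35, beside a median of 0.00 over all genes tested, and 83.7% were negative, beside 50.3%. The groups did not overlap in 14 members that were lower in siKMT2C, or 32.6%, against 12.3% of all genes, and in 2 that were higher, against 11.8%. The 14 were OASL, ADAR, IFIT3, ISG15, IRF1, IRF9, MX1, MX2, RSAD2, CMPK2, ISG20, PARP9, PARP14 and DTX3L, and the 2 were IFI16 and UBE2L6.

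Without siNC replicate 3, the edgeR test called 5 members lower: IFIH1, IFIT3, CMPK2, PARP14 and DTX3L, where 2.33% of all genes were called lower and 1.71% higher. DESeq2 called 4 lower, IRF1, MX2, RSAD2 and DTX3L, where it called 2.92% of all genes lower and 2.49% higher. DTX3L was in both of these sets, and limma-voom called 0 members (0.717% of all genes lower, 0.704% higher). After each library was corrected for transcript GC content and length, edgeR called 7 lower (IFIH1, IFIT3, IRF1, MX2, CMPK2, PARP14 and DTX3L) and IFI16 higher, where 4.24% of all genes were called lower and 4.72% higher.

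**Figure D1:**
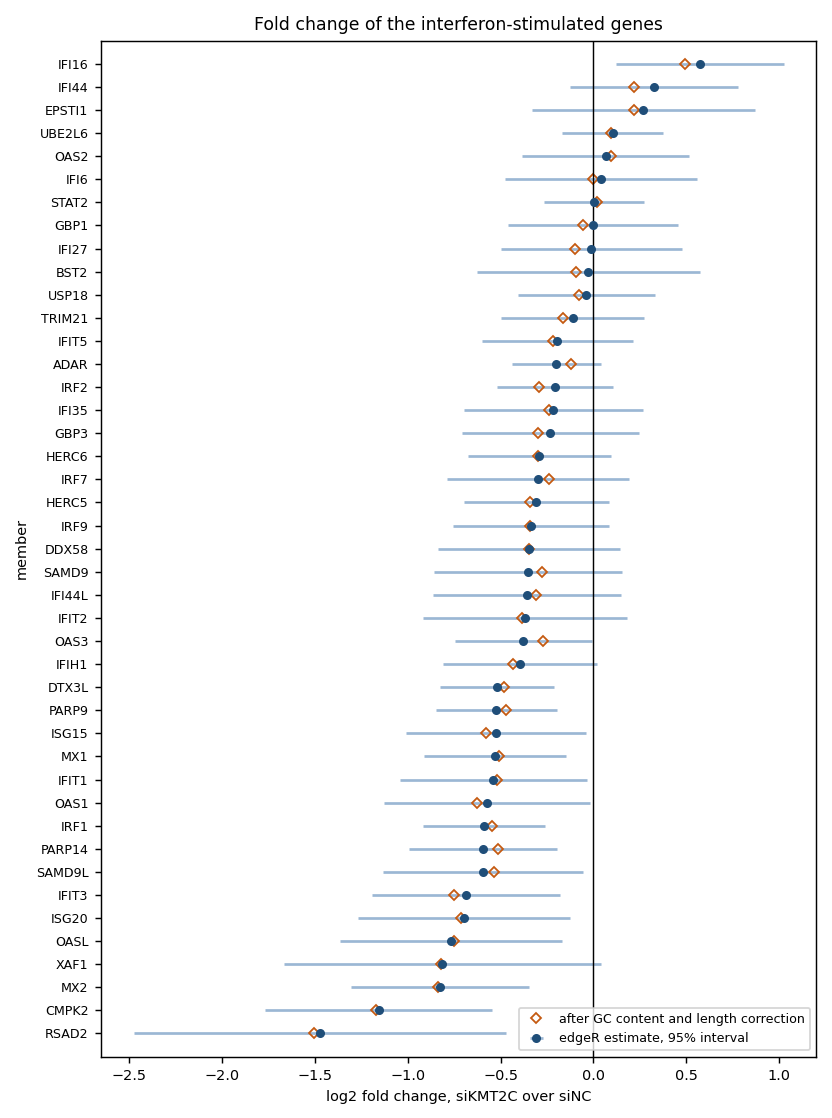
Log2 fold change of each of the 43 tested members, siKMT2C over siNC (x axis), with members ordered by it (y axis). Filled circles are edgeR estimates with 95% intervals over 3 libraries per group, and open diamonds are the estimates after correction for transcript GC content and length. Of the circles 36 lie below 0, RSAD2 is the lowest at -1.48 and IFI16 the highest at 0.57.

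Each library had its own level of the list. It is given here as the average, over the 43 members, of the library's log2 CPM minus the gene's own mean of 6 libraries. The siKMT2C replicates 1, 2 and 3 stood at -0.25, -0.28 and 0.02 by this measure. Of the siNC libraries, replicate 1 stood at 0.30, replicate 2 at 0.22 and replicate 3 at -0.01. The replicates numbered 3 thus lay between the other libraries, and beside each other. Above their own mean were 7 members in siKMT2C replicate 1 and 6 in siKMT2C replicate 2, but 38 in siNC replicate 1 and 34 in siNC replicate 2. In siKMT2C replicate 3 the count was 23, and in siNC replicate 3 it was 19.

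The same can be read from single pairs of libraries. Between siKMT2C replicate 1 and siNC replicate 1, 40 of 43 members were lower in the siKMT2C library, against 49.1% of all genes. Between siKMT2C replicate 3 and siNC replicate 3 the count was 22, against 51.0% of all genes. The other 7 pairs gave 28 to 38. KMT2C itself was lowest in replicate 3 of both groups, at 27.3 CPM in siKMT2C and 72.6 CPM in siNC. How its level in a library relates to that of the members was not tested.

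**Figure D2:**
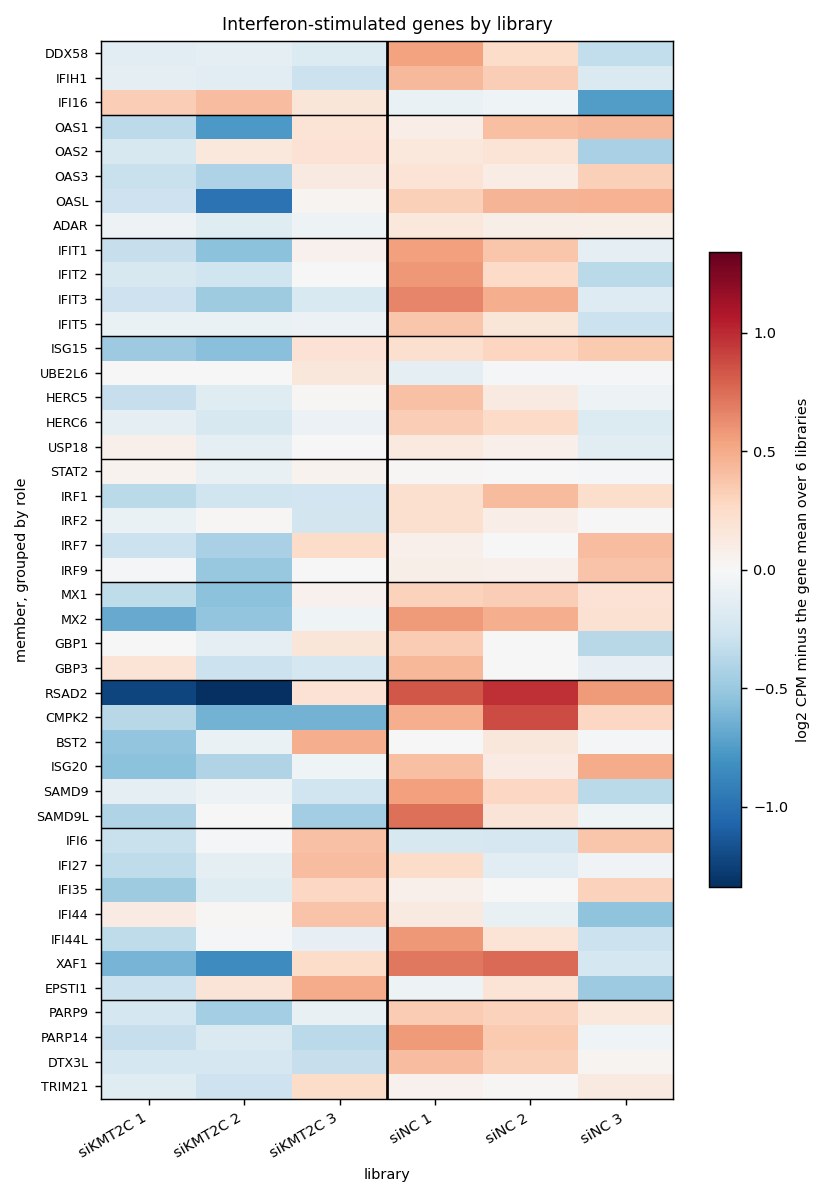
Colour shows log2 CPM minus the gene's mean over 6 libraries, for the 43 tested members (y axis, grouped by role with lines between roles) in each library (x axis, siKMT2C replicates left of the thick line and siNC replicates right of it). siKMT2C replicates 1 and 2 are mostly blue and siNC replicates 1 and 2 mostly red, while siKMT2C replicate 3 and siNC replicate 3 hold both colours.

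Before the correction for GC content and length, the size of the spread within a group was close to that of other genes. The SD of log2 CPM over the 3 libraries of a group had a median over members of 0.19 in siKMT2C and 0.22 in siNC, beside 0.19 and 0.26 over all genes tested. After that correction the medians over members were 0.21 in siKMT2C and 0.18 in siNC, beside 0.16 and 0.17 over all genes. The members then spread more than other genes, mainly in siKMT2C. Before that correction most members shared the direction of the spread, but which members did so varied with transcript GC content, as given below. siKMT2C replicate 3 was the highest siKMT2C library in 30 of 43 members (69.8%, against 38.2% of all genes), and siNC replicate 3 was the lowest siNC library in 29 (67.4%, against 41.0%). The genes above the fitted trend of edgeR's biological variation were 17 of 43 members (39.5%), against 28.3% of all genes.

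Of the 3 sensors among the members, 2 had a negative value and IFI16 a positive one. RIG-I, the product of DDX58, and MDA5, the product of IFIH1, bind viral RNA, and IFI16 binds DNA. IFIH1 was at 76.5, 75.7 and 68.2 CPM in siKMT2C replicates 1 to 3 and at 113, 105 and 72.8 CPM in siNC. Its siNC replicate 3 lay at the siKMT2C level, so the groups overlapped, with a log2 fold change of -0.40 (SE 0.18, edgeR adjusted p = 0.313). DDX58 was at 45.6, 46.1 and 44.5 CPM against 73.2, 59.7 and 40.2 CPM in siNC, a flat level in siKMT2C and the lowest value of all in siNC replicate 3. Its log2 fold change was -0.35. IFI16 went the other way: its level was 194, 205 and 173 CPM in siKMT2C and 145, 148 and 91.7 CPM in siNC, with no overlap and a log2 fold change of 0.57 (SE 0.20, edgeR adjusted p = 0.192).

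Of the enzymes of double-stranded RNA, 4 of 5 had a negative value, and the library farthest from its group differed between genes. OAS1, OAS2 and OAS3 lie side by side on chromosome 12 (112906777 to 113011723, GRCh38) and make the 2-5A messenger that activates the nuclease RNase L. OAS3, the most abundant of the family at 33.1 FPKM (fragments scaled to gene length and library depth, mean over 6 libraries), was at 299.9, 276 and 399 CPM in siKMT2C and 416, 393 and 457 CPM in siNC. OAS1 was at 41.5, 31.0 and 60.1 CPM against 56.3, 69.9 and 71.2 CPM. In both, siKMT2C replicate 3 overlapped the siNC libraries, and the log2 fold changes were -0.38 (SE 0.16, edgeR adjusted p = 0.286) for OAS3 and -0.57 (SE 0.24, edgeR adjusted p = 0.281) for OAS1. OASL, a relative that lacks the synthase activity and binds RIG-I, was at 8.75, 5.27 and 10.9 CPM against 13.2, 14.5 and 14.6 CPM, without overlap. Its log2 fold change was -0.77 (SE 0.26, edgeR adjusted p = 0.189). ADAR, the enzyme that edits adenosine to inosine in double-stranded RNA, was at 438, 409 and 436 CPM against 504, 484 and 485 CPM. The ADAR groups did not overlap, but the difference was small, with a log2 fold change of -0.20 (95% interval -0.44 to 0.04). OAS2 had a log2 fold change of 0.06, and its sign turned without siKMT2C replicate 3 (-0.01) and without siNC replicate 3 (-0.12).

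All 4 IFIT genes had a negative value, and siNC replicate 3 was the lowest siNC library in each. They encode proteins that bind foreign or incompletely capped RNA, and all 4 lie within 137.3 kb on chromosome 10 (89283694 to 89421001, GRCh38). IFIT3 was at 44.4, 38.7 and 46.7 CPM in siKMT2C and 85.3, 75.7 and 47.9 CPM in siNC. IFIT1 was at 68.4, 58.0 and 88.0 CPM against 124, 109.8 and 78.1 CPM, and IFIT2 at 19.9, 19.3 and 23.1 CPM against 34.7, 27.6 and 18.02 CPM. In all 3 genes siNC replicates 1 and 2 stood above every siKMT2C library, while siNC replicate 3 was just above the siKMT2C range in IFIT3, within it in IFIT1 and just below it in IFIT2. The log2 fold changes were -0.69 (SE 0.22, edgeR adjusted p = 0.167) for IFIT3 and -0.54 (SE 0.22, edgeR adjusted p = 0.261) for IFIT1, and -0.37 for IFIT2. In IFIT1 siKMT2C replicate 3 was also above its group, by 0.48 on the log2 scale, and siNC replicate 3 was at -0.58 against its own. After the correction for GC content and length these distances in IFIT1 were 0.61 and -0.30. IFIT5 had a log2 fold change of -0.19. IFIT1, IFIT2 and IFIT3 overlap the gene LIPA on the other strand in GENCODE 29, and LIPA held 18756 counts, so without strand information their reads cannot be told apart where they overlap.

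Of ISG15 and the enzymes that attach or remove it, ISG15 had the most negative value and the widest gap within siKMT2C. ISG15, at 47.9 FPKM, was at 68.5, 65.1 and 110.2 CPM in siKMT2C and 111, 117 and 123 CPM in siNC. siKMT2C replicate 3 stood just below the siNC libraries and far above the other siKMT2C libraries, and the log2 fold change was -0.53 (SE 0.21, edgeR adjusted p = 0.255). Of the ligases, HERC5, which joins ISG15 to its targets, was at 21.4, 23.7 and 26.9 CPM against 34.9, 28.9 and 25.3 CPM, with a log2 fold change of -0.31. Its relative HERC6 was at 32.6, 30.4 and 33.6 CPM against 44.6, 42.4 and 31.2 CPM, with a log2 fold change of -0.29. The groups overlapped in both ligases, and siNC replicate 1 was the highest library. The conjugating enzyme UBE2L6 was at 111, 109.9 and 122 CPM against 101, 109 and 109 CPM, so the groups were parted by less than their spread, with a log2 fold change of 0.10. USP18, the ISG15 protease, had a log2 fold change of -0.04, and its sign turned without siKMT2C replicate 2 or siNC replicate 1.

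Of the transcription factors, IRF1 had the most even difference over libraries. IRF1, an activator of interferon and interferon-stimulated genes, was at 14.9, 15.9 and 16.0 CPM in siKMT2C and 22.1, 25.7 and 22.5 CPM in siNC. The groups did not overlap, no library stood apart, and the log2 fold change was -0.59 (SE 0.14, edgeR adjusted p = 0.0915). IRF9, the DNA-binding part of the STAT complex, was at 37.5, 26.7 and 38.3 CPM against 40.0, 39.9 and 49.6 CPM, with a log2 fold change of -0.34. IRF2, a repressor of IRF1 targets, was at 44.8, 48.1 and 40.1 CPM against 54.98, 50.6 and 47.8 CPM, with a log2 fold change of -0.21. The IRF2 groups overlapped by siKMT2C replicate 2, and in IRF9 siKMT2C replicate 2 was far below the rest. IRF7, the amplifier of interferon-α genes, had a log2 fold change of -0.30. STAT2, at 72.1 to 79.8 CPM in all 6 libraries, had a log2 fold change of 0.003 (95% interval -0.27 to 0.27), the value nearest 0 but that of GBP1.

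Of the dynamin-like GTPases, MX1 and MX2, which block viral nucleocapsids and lie next to each other on chromosome 21 (41361943 to 41459214, GRCh38), were lower without overlap between groups. MX2 was at 10.1, 11.2 and 15.5 CPM in siKMT2C and 24.0, 22.6 and 18.6 CPM in siNC, with a log2 fold change of -0.83 (SE 0.21, edgeR adjusted p = 0.102). MX1 was at 147, 127 and 192 CPM against 230.1, 232 and 211 CPM, with a log2 fold change of -0.53 (SE 0.17, edgeR adjusted p = 0.163). In both, siKMT2C replicate 3 was the highest of its group and siNC replicate 3 the lowest of its own. The guanylate-binding proteins act on intracellular bacteria and viruses. GBP3 was at 29.5, 21.1 and 22.0 CPM against 35.4, 26.0 and 23.9 CPM, with siNC replicates 2 and 3 inside the siKMT2C range and a log2 fold change of -0.23. GBP1 had a log2 fold change of -0.0014, whose sign differed between settings.

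**Figure D3:**
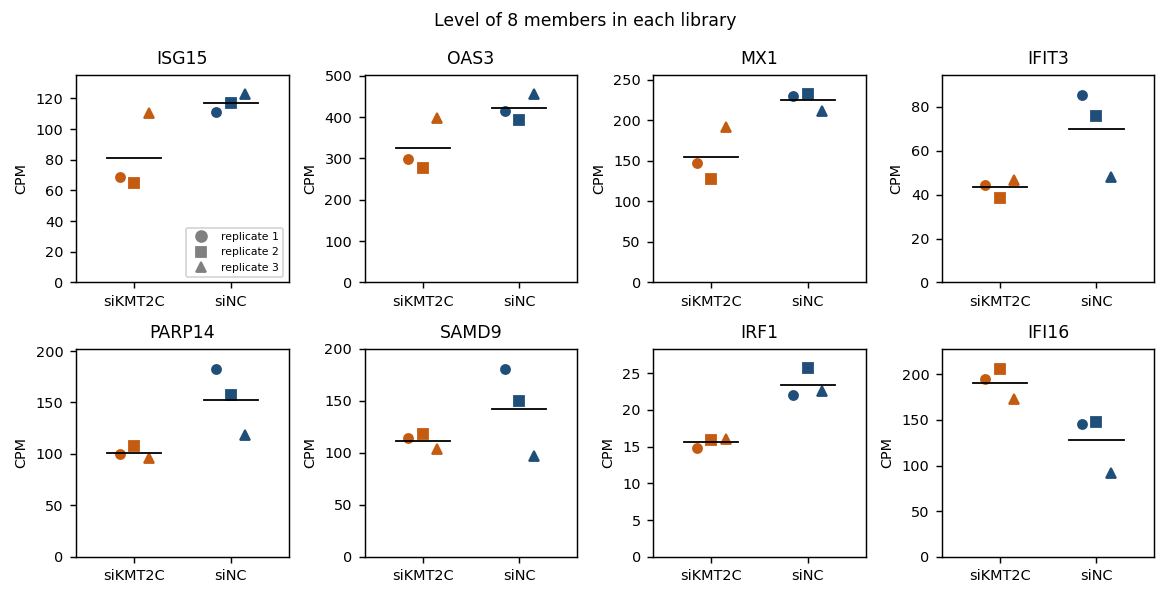
CPM (y axis, from 0) of 8 members in each of 3 siKMT2C and 3 siNC libraries (x axis), with the marker shape giving the replicate number and a bar at the group mean. In ISG15, OAS3 and MX1 the triangle of siKMT2C replicate 3 is the highest of its group, and in IFIT3, PARP14, SAMD9 and IFI16 the triangle of siNC replicate 3 is the lowest of its group.

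Among the other antiviral effectors were the 2 members with the most negative values, both at a low level. RSAD2, whose product viperin makes a chain-terminating nucleotide, was at 0.979, 0.899 and 2.83 CPM in siKMT2C and 4.46, 4.98 and 3.72 CPM in siNC. CMPK2, its neighbour on the other strand and a mitochondrial nucleotide kinase, was at 1.71, 1.41 and 1.41 CPM against 3.20, 4.22 and 2.76 CPM. Neither overlapped between groups, and siKMT2C replicate 3 was far above its group in RSAD2 only. The RSAD2 and CMPK2 genes overlap on opposite strands, so without strand information some of their reads cannot be told apart. The log2 fold change was -1.48 (SE 0.43, edgeR adjusted p = 0.142) for RSAD2 and -1.16 (SE 0.26, edgeR adjusted p = 0.0786) for CMPK2, on totals of 292 and 239 counts. The exonuclease gene ISG20 was at 1.83, 2.06 and 2.64 CPM against 3.66, 2.98 and 3.94 CPM, without overlap, and had a log2 fold change of -0.70 (SE 0.25, edgeR adjusted p = 0.207). SAMD9L and SAMD9, which restrict poxviruses, had log2 fold changes of -0.60 and -0.35, and BST2, or tetherin, of -0.03. The BST2 sign turned without siKMT2C replicate 1, siKMT2C replicate 2 or siNC replicate 2.

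The IFI genes held the most abundant member and had the smallest median difference of the 9 roles, -0.01 over 7 genes. IFI6, a mitochondrial and endoplasmic reticulum protein, was at 158 FPKM. Its level was 258, 310.1 and 415 CPM in siKMT2C and 274, 272 and 409.6 CPM in siNC, so the replicates numbered 3 were the highest of both groups. Its log2 fold change was 0.04 (95% interval -0.48 to 0.56), with a sign that turned without siKMT2C replicate 3, siNC replicate 1 or siNC replicate 2 and after the GC correction. IFI44 was at 50.5, 47.6 and 61.4 CPM against 51.2, 43.8 and 32.4 CPM, and its neighbour IFI44L at 65.1, 81.3 and 76.4 CPM against 124, 94.1 and 68.0 CPM. Their log2 fold changes had opposite signs, 0.32 for IFI44 and -0.36 for IFI44L, and siNC replicate 3 was the lowest siNC library in both. XAF1, an antagonist of an inhibitor of apoptosis, was at 3.91, 3.34 and 7.25 CPM against 10.0, 10.4 and 5.18 CPM. siKMT2C replicate 3 of XAF1 was above siNC replicate 3, and the log2 fold change was -0.81 (SE 0.37, edgeR adjusted p = 0.316). EPSTI1 (0.27), IFI27 (-0.01) and IFI35 (-0.22) overlapped between groups.

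DTX3L, PARP9 and PARP14, which lie within 202.9 kb on chromosome 3 (122527924 to 122730840, GRCh38), were lower in siKMT2C without overlap. DTX3L is a ubiquitin ligase that forms a complex with the ADP-ribosyltransferase PARP9, and PARP14 modifies proteins with ADP-ribose. DTX3L was at 149, 150.1 and 141 CPM in siKMT2C and 233, 219 and 179.8 CPM in siNC. PARP14 was at 99.9, 108 and 95.8 CPM against 183, 157 and 118 CPM, and PARP9 at 60.4, 52.0 and 66.8 CPM against 90.2, 88.6 and 79.0 CPM. The siKMT2C libraries of DTX3L lay close to each other, and siNC replicate 3 was the lowest siNC library in all 3 genes. The log2 fold changes were -0.52 (SE 0.13, edgeR adjusted p = 0.104) for DTX3L, -0.52 (SE 0.14, edgeR adjusted p = 0.118) for PARP9 and -0.59 (SE 0.17, edgeR adjusted p = 0.14) for PARP14. PARP9 and DTX3L start next to each other on opposite strands and overlap, so some of their reads cannot be told apart. The antibody receptor and ubiquitin ligase TRIM21 had a log2 fold change of -0.11, with overlap.

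The distance of a library from its group varied with the GC content of the members' transcripts. For each gene the log2 CPM of a library was set against the mean of the other libraries of its group, and the members were parted at the middle of their transcript GC content. In the 21 members with a GC content of 36.0% to 45.4%, siNC replicate 3 was below the others in 21, by a median of -0.55. In the 22 members with 46.3% to 66.8%, it was below in 11, with a median of 0.02. siKMT2C replicate 3 was above the others in 12 of the 21 members of low GC content (median 0.07) and in 21 of the 22 of high GC content (median 0.47). siNC replicate 1 was above the others in 21 of the 21 members of low GC content (median 0.44) and in 9 of the 22 of high GC content (median -0.05). SAMD9 (36.0% GC), IFIT2 (42.8%) and DDX58 (40.5%) are members of low GC content, and ISG15 (63.4%), IRF7 (66.8%) and OAS3 (54.3%) of high.

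Across the 43 members, which share each library's depth and base composition, the difference of siNC replicate 3 went with GC content at a Pearson correlation of 0.81 (Spearman 0.82). For siKMT2C replicate 3 it was 0.40 (Spearman 0.48). The other siNC libraries went the opposite way, replicate 1 at -0.76 (Spearman -0.79) and replicate 2 at -0.45 (Spearman -0.42). Each of these is set against a mean that holds replicate 3, and how much that adds was not tested. siKMT2C replicates 1 and 2 were at -0.27 and -0.29. Over 15022 tested genes with a transcript the correlations of siNC replicates 1, 2 and 3 were -0.49, -0.24 and 0.61, and that of siKMT2C replicate 3 was 0.37. The log2 fold change of the members had a Pearson correlation of 0.04 with GC content, and its median was -0.36 in the 21 members of low GC content and -0.30 in the others, with 18 negative in each.

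**Figure D4:**
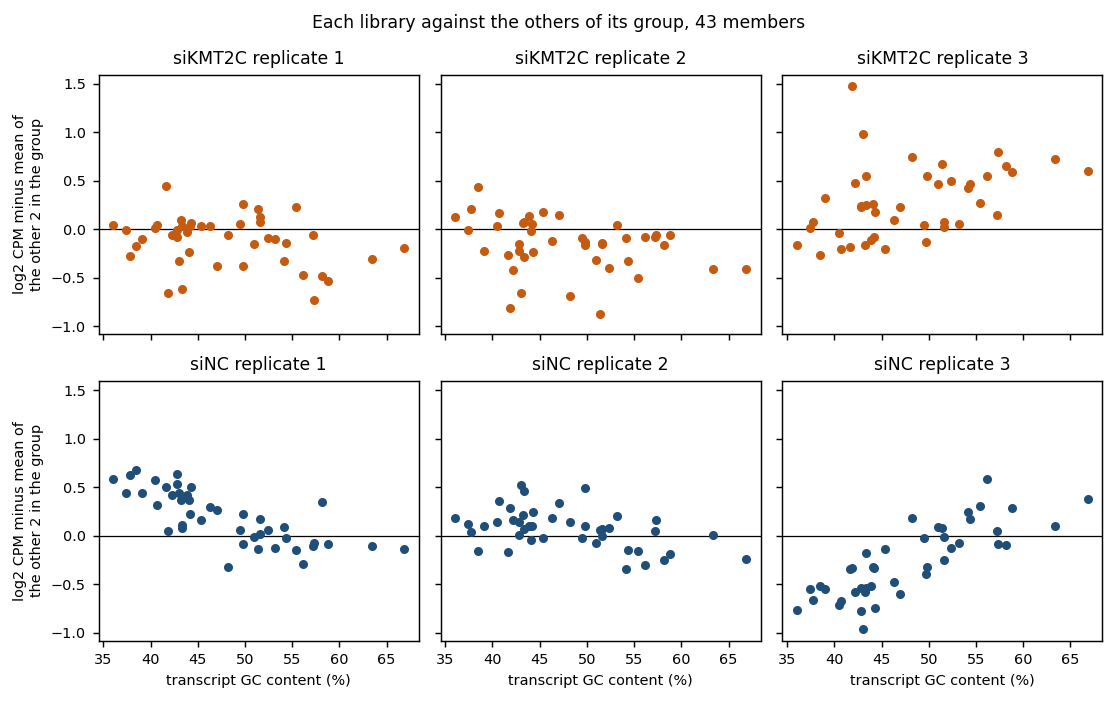
Log2 CPM of a library minus the mean of the other 2 libraries of its group (y axis) against transcript GC content in percent (x axis), 1 point for each of 43 members and 1 panel for each library. In siNC replicate 3 all 21 members of 45.4% GC or less lie below 0, and in siKMT2C replicate 3 all but 1 of the 22 members of higher GC content lie above 0.

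After correction of each library for GC content and length, the average level of the members was -0.26 in siKMT2C replicate 1, -0.30 in replicate 2 and 0.02 in replicate 3. In siNC replicates it was 0.29, 0.22 and 0.03 in that order. siNC replicate 3 was then below the other siNC libraries in 37 of 43 members, by a median of -0.28, and siKMT2C replicate 3 above its group in 34, by a median of 0.29. The pair of the replicates numbered 3 had 23 of 43 members lower in siKMT2C, and the other 8 pairs 31 to 40. The replicates numbered 3 thus lay between the other libraries after this correction as well. The correction removes only a trend fitted over all genes, so the part of GC content and length in these levels was not tested. The median log2 fold change of the members after the correction was -0.31, with 37 of 43 negative.

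Most ligands were not detected at this depth. Of 21 interferon genes, 15 had 0 counts in every library, which allows up to 0.0306 CPM over the 6 libraries, IFNG and IFNA2 among them (limits here cover counting error only). IFNB1 had 2 counts in all, IFNA1 6, IFNL1 2 and IFNL3 1, and reads of near-identical interferon-α genes may have been split in counting. The ligands that passed the filter were IFNK, a type I interferon made by keratinocytes, and IFNE, one of epithelia. IFNK was at 9.85, 10.3 and 12.3 CPM in siKMT2C and 15.7, 10.4 and 7.66 CPM in siNC, and IFNE at 7.03, 5.72 and 5.34 CPM against 9.61, 9.28 and 5.86 CPM. In both the highest value was that of siNC replicate 1 and the groups overlapped, with log2 fold changes of -0.05 (SE 0.27, edgeR adjusted p = 0.951) and -0.45 (SE 0.24, edgeR adjusted p = 0.4). The IFNK sign turned without siKMT2C replicate 1 or siNC replicate 1 and with limma-voom.

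Of 18 tested signalling genes of the pathway, mostly receptors, kinases and inhibitors, 0 were called by edgeR (1 lower and 1 higher at an unadjusted p under 0.05, against 9.01% and 7.91% of all genes, so near the background). Of the 18, 15 were negative, against 50.3% of all genes, with a median of -0.18. The smallest p-value was that of the phosphatase PTPN11, with a log2 fold change of 0.48 (SE 0.11, edgeR adjusted p = 0.0848). SOCS3, a feedback inhibitor of JAK kinases, had -0.47, the receptor chain IFNAR1 -0.35 and the STAT inhibitor PIAS1 -0.34. PTPN11 was at 397, 387 and 378 CPM in siKMT2C and 304, 264 and 266 CPM in siNC, higher without overlap.

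Of 17 tested genes that sense nucleic acids and induce interferon, 0 were called by edgeR, 3 (17.6%) were lower and 2 higher at an unadjusted p under 0.05, against 9.01% and 7.91% of all genes, and 13 (76.5%) were negative, against 50.3%. SAMHD1, which degrades deoxynucleotides, was at 155, 155 and 180.5 CPM in siKMT2C and 244, 255 and 198 CPM in siNC, without overlap and with a log2 fold change of -0.51 (SE 0.14, edgeR adjusted p = 0.126). The adaptor TRAF3 was at 21.3, 21.8 and 23.9 CPM against 12.2, 14.7 and 17.1 CPM, higher without overlap and with a log2 fold change of 0.61 (SE 0.17, edgeR adjusted p = 0.126). TMEM173, which encodes STING, and the ubiquitin ligase TRIM25 had log2 fold changes of -0.52 and -0.37, with the siKMT2C libraries below the siNC ones in both.

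A list of 50 further interferon-stimulated genes, none of them a member and also chosen with earlier results known, had 46 tested. edgeR called 0, while 11 (23.9%) were lower and 1 higher at an unadjusted p under 0.05, against 9.01% and 7.91% of all genes. Of the 46, 33 (71.7%) were negative, against 50.3%, with a median of -0.18. The groups did not overlap in 12 lower genes (26.1%, against 12.3%) and 2 higher genes (against 11.8%). APOL6 was at 47.8, 52.0 and 49.7 CPM in siKMT2C and 87.1, 85.1 and 66.3 CPM in siNC, with a log2 fold change of -0.67 (SE 0.15, edgeR adjusted p = 0.0702). NLRC5, an activator of MHC class I genes, was at 3.79, 4.05 and 4.30 CPM against 6.52, 7.82 and 6.81 CPM, with a log2 fold change of -0.80 (SE 0.18, edgeR adjusted p = 0.0786). Both were lower in every siKMT2C library than in any siNC library. IFITM1, which blocks viral entry, was at 53.9, 50.2 and 69.1 CPM against 84.7, 93.5 and 88.4 CPM, also without overlap and with a log2 fold change of -0.62 (SE 0.15, edgeR adjusted p = 0.0976). LAP3, an aminopeptidase, was higher at 90.2, 79.5 and 94.96 CPM against 57.5, 60.5 and 68.2 CPM, with a log2 fold change of 0.51 (SE 0.14, edgeR adjusted p = 0.115). By the measure used for the members, these 46 genes averaged -0.13 in siKMT2C replicate 1, -0.17 in replicate 2 and -0.01 in replicate 3. The siNC replicates averaged 0.15, 0.16 and 0.00, so here too the replicates numbered 3 lay between the others.

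All 11 keratinocyte markers were present and tested, among them the keratin genes KRT14 at 1644 FPKM, KRT6A at 943 FPKM and KRT5 at 372 FPKM. Their summed level was 14902 to 20829 CPM in siKMT2C and 15688 to 23351 CPM in siNC, with the highest sum of each group in its replicate 3, where its part in the members' levels was not tested. A few keratins make up most of these sums. Gene by gene, 9 of the 11 (81.8%, against 50.3% of all genes) had a negative log2 fold change, with a median of -0.33. At an unadjusted edgeR p under 0.05, 2 (18.2%) were lower and 1 higher, against 9.01% and 7.91% of all genes, and 0 were called. The median of the keratinocyte markers was thus close to the -0.35 of the members. Values of these markers ranged from -0.69 to 0.72, and whether markers and members share anything was not tested. Of 9 immune markers 5 had 0 counts, PTPRC, CD3E, CD207 and CD1A among them. Also at 0 were CLEC4C and LILRA4 of plasmacytoid dendritic cells, PECAM1 and CDH5 of endothelium and TYR, DCT and SOX10 of melanocytes. These lists were not empty: over the 6 libraries they held 18, 3 and 225 counts, in that order. Of 5 melanocyte markers 2 were tested, with log2 fold changes of -0.26 and 0.43, and 0 were called. The 9 immune markers summed to 0.246 to 0.514 CPM in siKMT2C and 1.32 to 1.77 CPM in siNC, nearly all CD14 and ITGAX. The 7 fibroblast markers summed to 13.5 to 17.5 CPM and 20.7 to 31.1 CPM, mostly COL1A1, and none was at 0 in every library. The immune and the fibroblast sums moved with the members' group difference, and their part in it was not tested. Gene by gene, 3 of the 4 tested fibroblast markers were negative (75%, against 50.3% of all genes), with values from -1.57 to 0.78. Of the 9 immune markers 1 was tested, and together they held 98 counts. In such bulk libraries fewer cells with an interferon response and less RNA per cell cannot be told apart.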

How the data were processed

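The deposited table held whole-number counts and FPKM for each gene in all 6 libraries, per the file headers. CASAVA 1.8 and TopHat2 2.0.6 are named in the submitters' processing notes. The build named there is mm10, a mouse build, but the identifiers are human, and it was not used. How reads were counted, on which human build and annotation, is not given in the sources used here. Per the labels, libraries came from total RNA with a SMARTer kit. The FPKM deposited by the authors were counts rescaled (relative deviation at most 5.29e-06 in 10244 genes) and serve only to compare genes.

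Symbols and coordinates come from GENCODE 29 (GRCh38), which held 58039 of 58302 identifiers. The count model was edgeR 4.0.16 (R 4.3.3), with filterByExpr, TMM factors and the robust quasi-likelihood F test over the 15063 genes that passed, adjusted by Benjamini-Hochberg and called under 0.05. The SE was taken from the log2 fold change and the root of F. Log2 CPM used a prior count of 2. The step was tested on simulated data.

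The members and lists were chosen with earlier results of these data known. Values by library were given for the up to 3 members of each role with the smallest p and the 4 with the highest FPKM, and 4 genes of each pathway list by p. UBE2L6, STAT2 and the motif examples were added after their values were seen. Values of 2 list genes are not reported here. Alternatives were DESeq2 1.42.0, voom in limma 3.58.1, RLE size factors, unscaled library sizes, no filter, a filter at 1 CPM in 3 libraries, a replicate block and leaving out each library. A loess correction (span 0.3) for transcript GC content and length, for 15022 genes, was chosen after seeing the data. Promoters came from RefSeq (GRCh38.p14).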

Additional observations from a re-analysis of the deposited data

How the results depend on the processing

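Calls among the members rested on the setting, and the sign of most did not: 36 of 43 members kept their sign in all 14 alternatives. Lower and higher members called were 4 and 0 with DESeq2, 7 and 1 after the GC content and length correction, and 0 to 5 and 0 when 1 library was left out, with 5 only without siNC replicate 3. For the pathway lists, 83 genes were tested in the main fit. Lower and higher pathway genes called were 4 and 2 with DESeq2, where 2.92% and 2.49% of all genes were called. After the correction they were 6 and 4, where 4.24% and 4.72% of all genes were called, so the higher calls were near the background. With 1 library left out they were 0 to 4 and 0 to 1. Over all genes, lower and higher calls were 431 and 368 with DESeq2, 637 and 709 after the correction, and 10 to 358 and 6 to 262 with 1 library left out, highest without siNC replicate 3. KMT2C ranged from -1.51 to -1.36 with 1 library left out, and was at -1.25 after the correction (edgeR adjusted p = 0.00112). In a fit with the replicate number as a block, 5 of 43 members were lower (IRF1, MX2, CMPK2, PARP14 and DTX3L) and 1 higher (IFI16). In that fit 2 of 83 pathway genes were lower and 3 higher, beside 512 lower and 456 higher of 15063 genes. Same-numbered libraries deviated together at correlations of 0.02, 0.11 and 0.39 for numbers 1, 2 and 3, and siNC replicate 1 went with siKMT2C replicate 2 at 0.32. The pair numbered 3 had the highest correlation of the 9 pairs. As 1 same-numbered pair was near 0 and no label ties the numbers to a batch, the block was not used for the report, and whether the replicates numbered 3 share a batch was not tested. Signs turned for STAT2 with library size alone (-0.025) and a CPM of at least 1 in 3 libraries (-0.00013), for GBP1 with no filter (0.0030), the block (0.021) and limma-voom (0.024), for IFNK with limma-voom (0.0042) and for IFI6 after the correction (-0.0015). With 1 library left out, log2 fold changes whose sign turned ranged from -0.12 to 0.18 for OAS2, -0.13 to 0.020 for USP18, -0.021 to 0.052 for STAT2, -0.17 to 0.20 for GBP1, -0.34 to 0.19 for BST2, -0.16 to 0.26 for IFI6, -0.26 to 0.14 for IFI27 and -0.28 to 0.27 for IFNK. The cause of these changes was not tested. Depth limits the lowest members most: CMPK2, ISG20 and RSAD2 rest on 239 to 292 counts over 6 libraries.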
